A study of Parhyale hawaiensis with 10 samples.

Results

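Parhyale hawaiensis is an amphipod crustacean whose thoracic legs grow out of the embryo as limb buds, become jointed and go on differentiating until hatching. Promoters and enhancers in use tend to lie in open chromatin, where the Tn5 transposase can cut. ATAC-seq sequences the cut fragments, and a peak is a stretch where they pile up above the local expectation. The regions described here are stretches of chromatin that were open in developing legs, were not called in adult legs, and were called in a whole embryo at either stage 20 or stage 23 but not at both.

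The members were chosen by the peak calls of 8 libraries. Peaks of the 9 nuclei libraries were merged into 280946 regions, and 1 shared base pair with a library's peak made a region called in that library. Members were called in all 3 embryonic leg libraries, in no adult leg library and in exactly 1 of the embryos at stages 20 and 23, on scaffolds whose largest peak end is at least 10000. This left 3035 regions, of which 1618 were called at stage 20 and not at stage 23 (the stage 20 set) and 1417 at stage 23 and not at stage 20 (the stage 23 set). The stage 24 embryo and naked DNA took no part in the choice of members, apart from the shape that stage 24 peaks gave to merged regions.

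All animals were of the Chicago-F inbred line, and no mutation or treatment is given. Whole embryos at stages 20, 23 and 24 were single animals, with 1 library each. Embryonic legs (3 libraries) were T4 to T8 thoracic legs, 30 to 40 in number, from pooled embryos at stages 25 to 26. Adult legs (3 libraries) were uninjured T4 and T5 legs, and for 1 further library the transposase was given naked DNA of a whole adult. Embryos and embryonic legs were lysed by different protocols, a whole embryo also holds tissues other than legs, and fewer open cells cannot be told apart from less open chromatin per cell. The files name no genes, no genome sequence was used here, and so the labelled tissues could not be checked against marker genes and neither neighbouring genes nor base sequences are given.

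The early embryo lists were short and shallow beside most others. Stages 20, 23 and 24 had 60435, 56606 and 119994 peaks, embryonic legs 77357 to 119487, adult legs 48324 to 76268 and naked DNA 161533. Fragment numbers at a summit, recovered from the deposited folds and p-values, put the most common expected pileup at 0.404 fragments at stage 20 and 0.233 at stage 23, against 0.394 to 0.526 in embryonic legs. At that expectation the smallest pileup called was 4 fragments at stage 20 and 3 at stage 23. The stage 24 list had a narrowest peak of exactly 200 bp, unlike the 122 to 152 bp of the other nuclei libraries, so its pileups may not be on their scale. Each early stage is 1 embryo, so that a difference between the sets has no replicate check and no p-value is given. Intervals cover counting error over regions, which are not replicates.

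The 2 sets were about equal in size. Among the 11969 regions called in all embryonic leg libraries and no adult leg library on such scaffolds (eligible regions), the stage 20 set made up 13.5% and the stage 23 set 11.8%. A further 1126 eligible regions were called at both early stages and 7808 at neither. Of the 2744 eligible regions called at stage 20, 41.04% were also called at stage 23, and of the 2543 called at stage 23, 44.3% were also called at stage 20. The order of the sets depended on the lists: when each nuclei list was cut to its 48324 strongest peaks, the sets held 929 and 959 regions, and without adult leg 1 they held 2795 and 2870. Without embryonic leg 2 they held 2590 and 2122. These counts follow from the selection and are a description.

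The early embryo calls rested on few fragments. The median summit of the stage 20 set held 7 fragments in its embryo (quartiles 6 and 9, range 4 to 45), and that of the stage 23 set held 5 (quartiles 4 and 7, range 3 to 25). In the stage 20 set 654 members (40.4%) had at most 6 fragments there and 389 (24.0%) had 10 or more. In the stage 23 set, from the shallower embryo, 967 (68.2%) had at most 6 and 118 (8.33%) had 10 or more. Eligible regions called at both early stages had few fragments as well. Their medians were 8 at stage 20 (quartiles 6 and 10) and 6 at stage 23 (quartiles 5 and 9). A −log10 q under 2 was found for 320 (19.8%) and 317 (22.4%) members, close to the calling limit near 1.3. In the leg libraries, most of them deeper, the medians were 13, 11 and 17 fragments in embryonic legs 1 to 3 for the stage 20 set and 12, 10 and 16 for the stage 23 set.

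**Figure D1:**
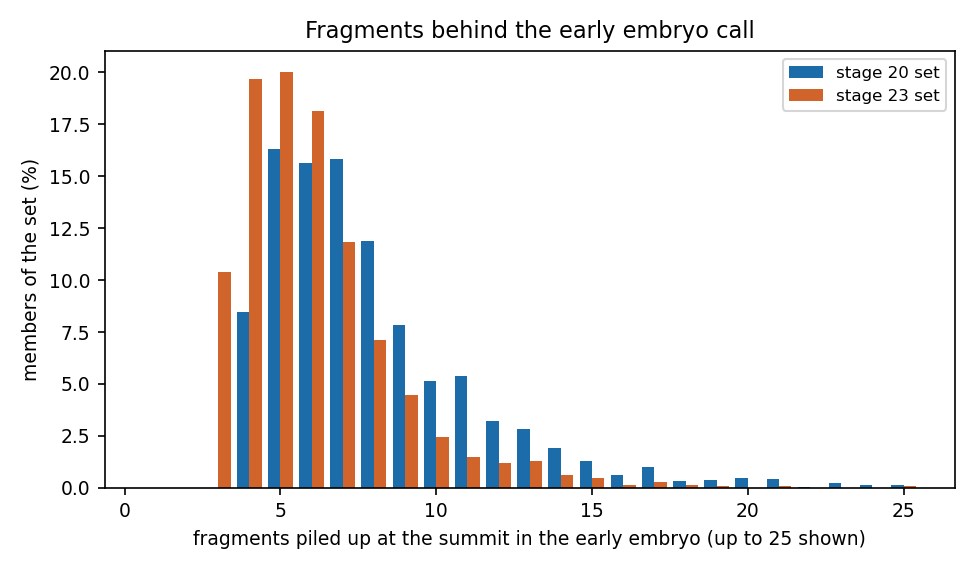
Share of each set (vertical axis, %) by the number of fragments at the summit in its own early embryo (horizontal axis, up to 25 shown), blue for the stage 20 set and orange for the stage 23 set. Both sets peak at 5 fragments, and the stage 20 set has the longer tail.

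Regions with more fragments at an early stage were less often exclusive to it. Of eligible regions with at most 5 fragments at stage 20, 68.0% (95% Wilson interval 64.1% to 71.6%) were not called at stage 23, and of those with 15 or more 45.9% (39.1% to 52.9%; 90 of 196). For stage 23 the share not called at stage 20 went from 64.4% (61.5% to 67.1%) to 28.1% (18.6% to 40.1%; 18 of 64). The number of fragments, which is set in part by depth, thus moves with membership of both sets, and its part in the selection was not tested. Exclusive calls with many fragments exist all the same, 90 at stage 20 and 18 at stage 23 with 15 or more.

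Most members were called again at stage 24, a library that the selection did not use. Of the stage 20 set 1396 of 1618 (86.3%, 95% Wilson interval 84.5% to 87.9%) were called there, and of the stage 23 set 1141 of 1417 (80.5%, 78.4% to 82.5%), beside 68.7% of all eligible regions. Eligible regions called at neither early stage reached 59.4% (58.3% to 60.5%) and those called at both 93.3% (91.7% to 94.7%). The stage 20 set thus exceeded the regions of neither stage by 26.9 percentage points (95% Newcombe interval 24.8 to 28.8) and the stage 23 set did so by 21.1 (18.7 to 23.4). Both sets lay below the regions of both stages, by 7.06 (4.80 to 9.26) and 12.8 points (10.3 to 15.3). Median widths had the same order, 341 bp for neither stage, 417 and 419 bp for the sets and 481 bp for both stages. The part of width in these differences was not tested.

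The earlier of the 2 sets shared more with stage 24. The stage 23 share minus the stage 20 share was −5.76 points (95% Newcombe interval −8.43 to −3.11), although stage 23 is the nearer of the 2 to stage 24. The difference was −15.4 points with lists of equal length (63.7% against 79.1%) and −2.70 (−5.09 to −0.330) without embryonic leg 2. Fragment numbers moved with it: in the stage 20 set the stage 24 share was 82.6% for members with at most 6 fragments at stage 20 and 91.8% for those with 10 or more, and in the stage 23 set 77.6% and 88.1%. At equal fragment numbers the order of the sets was mixed. The stage 23 set was higher at 6 and at 7 fragments and lower otherwise. With 5 fragments the shares were 84.5% (stage 20 set) and 77.8% (stage 23 set), with 6 they were 81.4% and 83.7%, and with 7 they were 82.8% and 87.5%. With 8 or 9 fragments they were 89.97% and 85.4%, and with 10 to 14 they were 90.97% and 89.0%. Members with at most 4 had 81.0% (111 of 137) and 73.7% (314 of 426), where the stage 23 set alone includes calls on 3. Those with 15 or more had 94.4% (85 of 90) and 83.3% (15 of 18). Equal fragment numbers are not equal strength, since the most common expected pileup was 0.404 at stage 20 and 0.233 at stage 23. The part of depth and of fragment number in the difference was not tested.

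Strength in embryonic legs moved with the stage 24 call as well. When eligible regions were ranked by their mean fold over the embryonic leg libraries and divided into 5 equal groups, the stage 24 share of the stage 20 set went from 74.9% in the weakest to 94.8% in the strongest group. That of the stage 23 set went from 69.2% to 86.8%, and that of regions of neither stage from 43.5% to 77.6%. The stage 23 set lay below the stage 20 set in each of the 5 groups, by differences of −5.74, −7.77, −3.77, −5.80 and −8.00 points. The intervals of the weakest (−13.9 to 2.33) and the middle group (−9.72 to 2.07) include 0.

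**Figure D2:**
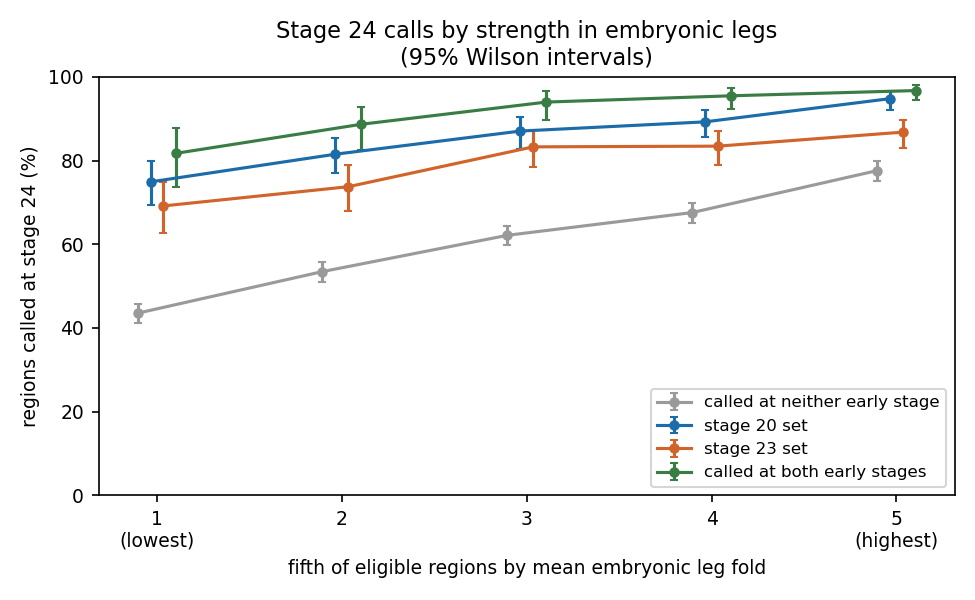
Share of regions called at stage 24 (vertical axis, %) in 5 equal groups of eligible regions ranked by mean embryonic leg fold (horizontal axis), with 95% Wilson intervals, for the 2 sets and for eligible regions of neither or both early stages. The stage 20 set goes from 74.9% to 94.8% and the stage 23 set from 69.2% to 86.8%, above the grey line of regions of neither stage in every group.

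Fold enrichment is the authors' ratio of a summit to its local expectation, and the sets are compared by it within a library. In embryonic legs 1, 2 and 3 the stage 20 set had median folds of 6.66, 6.09 and 7.80, and the stage 23 set 6.79, 6.46 and 8.31. The stage 23 set had the higher median fold in every embryonic leg library, by 0.134, 0.370 and 0.511, a mean of 0.338 ± 0.190 (SD, n = 3). Dropping embryonic leg 1 gave a mean of 0.201, and dropping adult leg 1 gave 0.514. Median fragment numbers at the leg summits had the reverse order, 12, 10 and 16 in the stage 23 set against 13, 11 and 17. The order of the sets in legs thus depended on the measure. Median folds of the other classes were as follows. Regions of neither early stage had 6.004, 5.84 and 6.88, and regions of both 7.41, 6.94 and 9.32, so that both sets stood between them in all 3 libraries. Since calls in these libraries took part in the selection, no test is given. The quartiles of all 4 classes overlapped in each library.

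At stage 24 the order of the sets by median fold was the reverse of that in legs. Members called there had a median fold of 8.04 in the stage 20 set (quartiles 6.03 and 10.6) and 7.29 in the stage 23 set (5.60 and 9.57), against 6.25 in regions of neither stage and 9.40 in regions of both. In their own early embryo the members' medians were 4.65 at stage 20 and 4.46 at stage 23. Regions called at both early stages had 5.07 and 4.86 there.

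**Figure D3:**
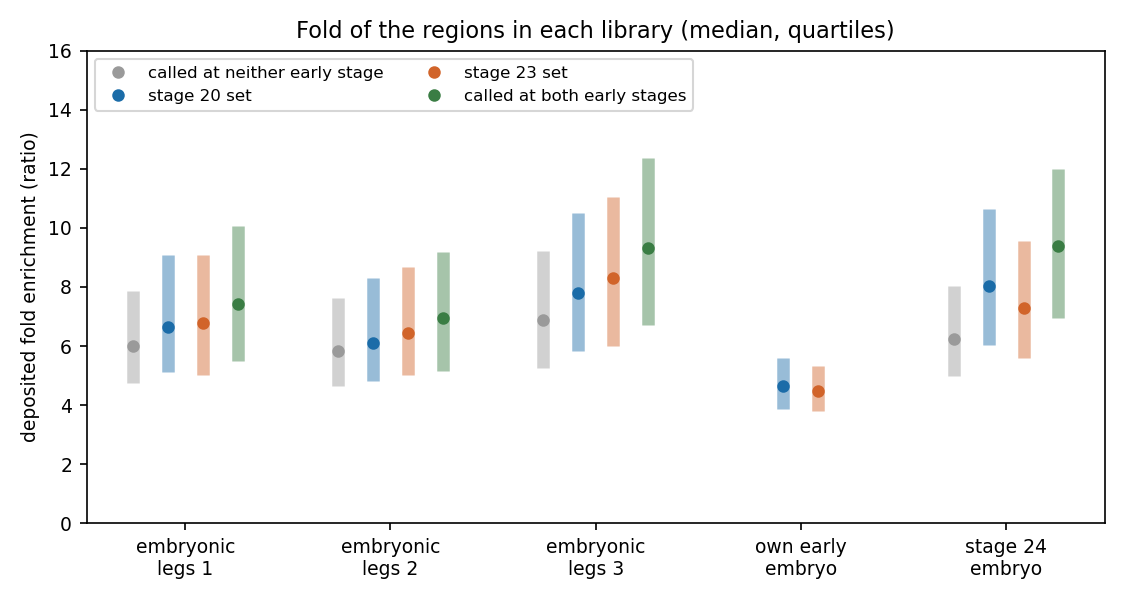
Median deposited fold (points) with quartiles (bars) of the 2 sets and of eligible regions called at neither or both early stages, in the 3 embryonic leg libraries and at stage 24. The own early embryo is shown for the 2 sets alone. Folds are compared within a library, so the early values of the 2 sets are not compared with each other. The stage 20 set has medians of 6.66, 6.09 and 7.80 in embryonic legs and the stage 23 set 6.79, 6.46 and 8.31, whereas at stage 24 they have 8.04 and 7.29.

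Members varied widely in strength. The mean embryonic leg fold of a member ran from 3.08 to 29.7 in the stage 20 set and from 2.91 to 27.5 in the stage 23 set. The median coefficient of variation over the 3 libraries was 20.9% and 20.4%. Embryonic leg 3, the leg library with the most peaks, gave the highest fold for 57.8% and 60.7% of members, and embryonic leg 2 the lowest for 51.3% and 47.8%. All eligible regions had the same order, with median folds of 6.22, 6.04 and 7.33 in embryonic legs 1 to 3. These measures set folds of different libraries side by side, and the part of library scale in them was not tested. Across the 1618 and 1417 members, Pearson's r of log2 folds between pairs of embryonic leg libraries was 0.638 to 0.689 and 0.684 to 0.705. Calls with a −log10 q of at least 5 in all 3 embryonic leg libraries were found for 872 (53.9%) and 794 (56.0%) members, and in the early embryo as well for 291 and 185. Of these 291 and 185 firmly called members 273 and 163 were also called at stage 24. In embryonic legs 1, 2 and 3 singly, 75.2%, 66.0% and 84.8% of the stage 20 set were called as firmly. The stage 23 set had 73.4%, 69.9% and 84.8%, beside 71.5%, 66.4% and 81.9% of all eligible regions. The stage 24 share of equally firm eligible regions was not worked out.

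The strongest member of all lay on scaffold phaw_50.283826 at 3616911 to 3617230 and belonged to the stage 20 set. Its folds were 27.2, 25.6 and 36.2 in embryonic legs 1 to 3 (29.7 ± 5.75; SD, n = 3), 6.62 at stage 20 on 11 fragments and 14.3 at stage 24. Embryonic leg 3 was the highest of the leg libraries, and the nearest stage 23 peak was 20172 bp away. The region at 12019555 to 12019822 of phaw_50.282861e followed with 21.5, 21.9 and 29.1 in legs (24.2 ± 4.24), 4.99 at stage 20 on 6 fragments and 5.79 at stage 24. Its stage 24 fold was thus below the lower quartile of the set, while its leg folds were among the highest.

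The member of rank 3, at 33268874 to 33269305 of phaw_50.000135f, was not called at stage 24. Its folds were 19.9, 23.2 and 27.8 in embryonic legs (23.7 ± 3.99; SD, n = 3) and 9.26 at stage 20 on 12 fragments. Among stage 20 members missed at stage 24 it was the strongest in legs, ahead of regions on phaw_50.283829c at 8561972 to 8562334 (14.4 ± 2.21) and on phaw_50.282861b at 17823011 to 17823363 (13.4 ± 0.864). These had 3.90 and 8.17 at stage 20, on 5 and 11 fragments. Ranks 4 to 6 of the set had mean leg folds of 22.6 (phaw_50.283743b at 80282 to 80656), 21.6 (phaw_50.020523b at 2372023 to 2372363) and 21.0 (phaw_50.282997b at 15188926 to 15189251). All 3 were called at stage 24, with folds of 18.7, 14.3 and 18.1. The last of them lay 131 bp from an adult leg peak.

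The strongest member of the stage 23 set lay on phaw_50.001559a at 2321933 to 2322393. Its folds were 27.0, 23.7 and 31.8 in embryonic legs 1 to 3 (27.5 ± 4.09; SD, n = 3), 7.75 at stage 23 on 10 fragments and 12.3 at stage 24. A region on phaw_50.020523b at 1957006 to 1957465 was nearly equal, with 26.4, 26.2 and 29.5 in legs (27.4 ± 1.86), 9.10 at stage 23 on 19 fragments and 8.05 at stage 24. These 2 differed by less than the spread of either over the leg libraries. The next 4 had mean leg folds of 24.5 (phaw_50.007301c at 15010088 to 15010581), 24.0 (phaw_50.015400b at 5421423 to 5421777), 24.0 (phaw_50.282861b at 4162915 to 4163665) and 23.0 (phaw_50.283874b at 5149156 to 5149576). They had 5, 6, 11 and 7 fragments at stage 23, and all 4 were called at stage 24, at folds of 8.76, 8.13, 12.4 and 18.4.

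Some members were firmly called in an early embryo. The highest stage 20 fold, 16.7 on 45 fragments, was that of phaw_50.283815b at 11408086 to 11408613, which had 14.99, 14.6 and 19.8 in embryonic legs and 19.4 at stage 24. The nearest stage 23 peak was 7153 bp away and the nearest adult leg peak 171095 bp away. Next came phaw_50.283811 at 31847804 to 31848164 (15.3 at stage 20 on 32 fragments, 11.6 ± 1.65 in legs) and phaw_50.282543a at 2308349 to 2308763 (14.1 on 30 fragments, 10.4 ± 2.40 in legs). Stage 24 folds of this pair were 19.9 and 16.02.

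At stage 23 the highest fold was 12.6 on 25 fragments, at 55467 to 55838 of phaw_50.283847, with 15.9, 19.9 and 17.9 in embryonic legs and 9.24 at stage 24. The region of rank 3 at stage 23, on phaw_50.014118 at 1178 to 1652, had 11.4 at stage 23 on 21 fragments, 20.2, 22.5 and 22.1 in legs and 19.6 at stage 24. A stage 20 peak lay 623 bp from it. That of rank 2, on phaw_50.282260b at 2541032 to 2541753, had 11.5 at stage 23 on 17 fragments with 5.49, 7.17 and 5.24 in legs 1 to 3, below the median of the set in legs 1 and 3, and no call at stage 24. It overlapped a naked DNA peak.

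The stage 23 members strongest in legs among those missed at stage 24 had mean leg folds of 17.3 ± 2.80, 15.9 ± 5.26 and 15.5 ± 6.03 (SD, n = 3 each). The strongest, on phaw_50.283811 at 34590847 to 34591344, had 12 fragments at stage 23. The next, on phaw_50.283869c at 17535714 to 17536584, had 4 fragments there, and its embryo summit lay 398 bp from that of embryonic leg 3. The last, on phaw_50.283870 at 30637972 to 30638199, had 7 fragments and leg folds of 13.5, 10.8 and 22.3.

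The weakest early calls show what the limit of the selection admits. At stage 20 the 3 lowest −log10 q values were 1.302, 1.304 and 1.305, on 7, 5 and 4 fragments, on phaw_50.283823c at 31144954 to 31145301, phaw_50.283817f at 9090770 to 9091727 and phaw_50.282997b at 1298732 to 1299014. Their leg folds were 4.04 ± 0.493, 10.5 ± 2.03 and 5.97 ± 3.68 (SD, n = 3 each), and all 3 were called at stage 24. In the region on phaw_50.283817f the stage 20 summit lay 669 bp from that of embryonic leg 3, within a region 958 bp wide. At stage 23 the 3 lowest all had 1.306 on 4 fragments, on phaw_50.000135e at 5679662 to 5680053, phaw_50.283826 at 53187508 to 53187872 and phaw_50.283829b at 11473290 to 11473736. Their leg folds were 7.69 ± 1.81, 10.3 ± 3.12 and 5.91 ± 1.91, with calls at stage 24 in all 3.

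For the scaffold limit, the member nearest inside it was a stage 20 region at 10392 to 11115 of phaw_50.001327 (leg fold 7.51 ± 1.03; largest peak end 11115). The region nearest outside was called at stage 23, at 7788 to 8190 of phaw_50.001900 (5.29 ± 1.83; largest peak end 8190; SD, n = 3 each). Without the limit, 57 more regions would have joined the stage 20 set and 51 the stage 23 set.

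Early embryo and leg peaks of a member mostly coincided, though less closely than leg peaks did with each other. An early embryo peak itself overlapped a peak of all 3 embryonic leg libraries in 1566 of the stage 20 set (96.8%) and 1372 of the stage 23 set (96.8%). In the other 52 and 45 members the merged region joins peaks that do not all meet. A member is by the rule a run of overlapping or touching peaks with all 4 of these libraries in it. The overlap and the summit distances thus follow in part from the selection. The median distance from the early embryo summit to that of embryonic legs 1, 2 and 3 was 43, 44 and 41.5 bp in the stage 20 set and 49, 49 and 48 bp in the stage 23 set. Between pairs of embryonic leg libraries it was 21.5 to 24 bp in both sets. The early summit lay within 50 bp of all 3 leg summits in 617 (38.1%) and 481 (33.9%) members, and over 200 bp from all 3 in 46 and 43. Summits resting on few fragments can be placed less exactly, and the part of fragment number in these distances was not tested.

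**Figure D4:**
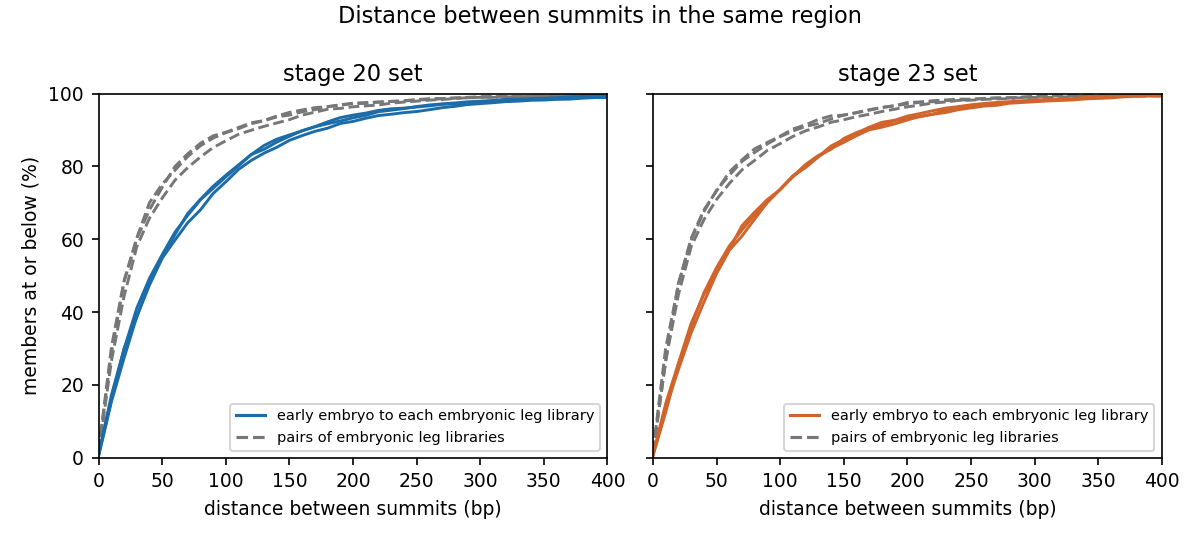
Cumulative share of members (vertical axis, %) by the distance between the strongest summits of 2 libraries in the same region (horizontal axis, bp), for the stage 20 set (left) and the stage 23 set (right). Coloured lines, from the early embryo to each embryonic leg library, lie below the grey dashed lines of pairs of embryonic leg libraries up to 200 bp and meet or cross some of them at the far end, with medians of 41.5 to 49 bp against 21.5 to 24 bp.

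Regions were of like width in both sets, with medians of 417 bp (quartiles 350 and 507) and 419 bp (351 and 504), against 341 bp for regions of neither stage and 481 bp for regions of both. Every library with a peak can widen a merged region, so these widths follow in part from the selection. Single peaks of embryonic legs 1, 2 and 3 had median widths of 251, 227 and 273 bp in the stage 20 set and 256, 236 and 288 bp in the stage 23 set, and 222, 207 and 242 bp in regions of neither stage. Members in which a leg library had more than 1 peak were few, 4 to 13 per library in the stage 20 set and 3 to 13 in the stage 23 set.

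Naked DNA, in which the transposase cuts without chromatin, was cut above expectation at a minority of members. A naked DNA peak overlapped 214 members of the stage 20 set (13.2%, 95% Wilson interval 11.7% to 14.96%) and 155 of the stage 23 set (10.9%, 9.42% to 12.7%), beside 9.83% of all eligible regions. Regions of neither early stage had 7.97% (7.39% to 8.59%) and regions of both 16.4% (14.4% to 18.7%). The stage 23 share minus the stage 20 share was −2.29 points (95% Newcombe interval −4.60 to 0.0460), which includes 0. The interval no longer included 0 without embryonic leg 2 (−3.64 points), embryonic leg 3 (−2.82), adult leg 1 (−2.26) or adult leg 2 (−3.88). Both sets exceeded the regions of neither stage, by 5.26 (3.58 to 7.09) and 2.97 points (1.33 to 4.80). Regions with naked DNA were wider (medians of 450 and 462 bp, against 414 and 415.5 bp for the rest), and the part of width was not tested.

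Naked DNA peaks were more frequent in stage 20 members without a stage 24 call than in those with one. Of the 222 stage 20 members not called at stage 24, 51 (23.0%, 95% Wilson interval 17.9% to 28.9%) overlapped naked DNA, and of the 1396 called there 163 (11.7%, 10.1% to 13.5%), a difference of 11.3 points (95% Newcombe interval 5.94 to 17.5). Of the 276 stage 23 members not called at stage 24, 33 did (12.0%, 8.64% to 16.3%), and of the other 1141, 122 (10.7%, 9.03% to 12.6%), a difference of 1.26 points (−2.57 to 5.93). Among members without stage 24 the sets differed by −11.0 points (−17.8 to −4.35; stage 23 minus stage 20). In regions of neither stage the share was 9.28% without and 7.07% with stage 24.

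Members without a stage 24 call were also weaker elsewhere. In the stage 20 set their median folds were 5.49, 5.13 and 6.02 in embryonic legs 1 to 3, against 6.81, 6.29 and 8.09 for members with the call, and at stage 20 they had 6 fragments against 7. In the stage 23 set the folds were 5.97, 6.19 and 6.87 against 6.93, 6.47 and 8.52, with 5 fragments against 6 at stage 23. The stage 24 call was thus missing more often where leg folds were low, in both sets and all 3 libraries. Their nearest stage 24 peak lay a median of 7250 bp (stage 20 set) and 5876 bp (stage 23 set) away, and within 1 kb in 23 and 25 cases.

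Peaks of the other early stage lay about as near to members as to regions of neither stage. The nearest stage 23 peak lay a median of 13204.5 bp from a stage 20 member and within 1 kb of 56 (3.46%, 95% Wilson interval 2.67% to 4.47%). From a stage 23 member the nearest stage 20 peak lay 14923 bp away and within 1 kb of 56 (3.95%, 3.06% to 5.10%). Regions of neither stage had stage 20 and stage 23 peaks at 14214 and 14409.5 bp, within 1 kb in 3.24% (2.87% to 3.66%) and 2.91% (2.56% to 3.30%). Single adult leg libraries 1, 2 and 3 had their nearest peak at medians of 7606, 13871 and 15269 bp from stage 20 members and 10401, 17648.5 and 17611 bp from stage 23 members. The nearest peak of the 3 adult lists together, which cannot be farther than that of a single list, lay 5526.5 bp from stage 20 members and 7048 bp from stage 23 members, and within 1 kb of 172 (10.6%, 9.22% to 12.2%) and 118 (8.33%, 6.999% to 9.88%). Regions of neither stage lay 4908 bp from one and regions of both 8092 bp.

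The median distance to leg regions shared with adults was shorter from stage 20 than from stage 23 members, with quartile ranges that overlapped. The nearest region called in all 6 leg libraries was a median of 41190 bp from stage 20 and 53027 bp from stage 23 members, and within 10 kb of 309 (19.1%) and 195 (13.8%). For regions of all 9 nuclei libraries the medians were 88487 and 117662 bp, with 154 (9.52%) and 83 (5.86%) within 10 kb. Regions of neither stage had medians of 34222.5 and 89132 bp for these 2 distances and regions of both 65762 and 119386 bp. Peak density differs along the genome, and its part in these distances was not tested.

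Members were spread over many scaffolds. They lay on 190 scaffolds, 165 with a stage 20 and 167 with a stage 23 member, and 142 scaffolds had both kinds. The 10 scaffolds richest in members held 720 of them (23.7%), against 21.6% of the eligible regions. Picking scaffolds by their members tends to raise the first share, so these shares cannot show whether members are concentrated. Scaffold phaw_50.283826 had the most, 53 of the stage 20 and 55 of the stage 23 set, followed by phaw_50.283823c with 38 and 58 and phaw_50.283850a with 41 and 39. On phaw_50.000203b the stage 20 set dominated, with 55 against 18, and on phaw_50.000135f with 42 against 22. Among the 76 scaffolds with at least 50 eligible regions, members made up 6.90% (phaw_50.283862a, 4 of 58) to 52.0% (phaw_50.283865b, 26 of 50) of these, with a median of 25.4%. The stage 20 share of members on those scaffolds ran from 28.6% to 82.6%, with a median of 53.6%.

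Members of a set were spaced much like eligible regions in general. The median distance to the next member of the same set was 284579 bp for stage 20 and 437468 bp for stage 23, against 301802 and 407314 bp from any eligible region to a stage 20 or stage 23 member. Within 1 kb there were 2 stage 20 members with such a neighbour (0.124%) and no stage 23 member, against 0.234% and 0.184% of eligible regions with a stage 20 or stage 23 member that near. Of the 2650 windows of 100 kb that held a member, 2301 (86.8%) held 1, 159 held members of both sets and 4 held as many as 4.

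The window at 15.2 to 15.3 Mb of phaw_50.007301c held 4 stage 20 members and no stage 23 member. Their mean leg folds were 7.78, 6.42, 8.57 and 16.3, their stage 20 folds 8.37, 7.36, 6.42 and 12.7, and all 4 were called at stage 24, the last at 26.8. That last region, at 15257197 to 15257580, was thus stronger than its 3 neighbours in legs and at both embryo stages. The window at 23.8 to 23.9 Mb of phaw_50.283850a held 3 stage 20 members and 1 stage 23 member, with mean leg folds of 10.2, 8.61 and 5.27 and of 11.0, and each had a stage 24 peak. In the next window, which spans 3.5 to 3.6 Mb of scaffold phaw_50.282396a, 2 stage 20 members (6.90 and 4.404 in legs) were followed by 2 stage 23 members (8.20 and 13.9), with 3 of the 4 called at stage 24. A further window with 4 members, at 73.2 to 73.3 Mb of phaw_50.283823c, ranked behind them by summed fold.

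**Figure D5:**
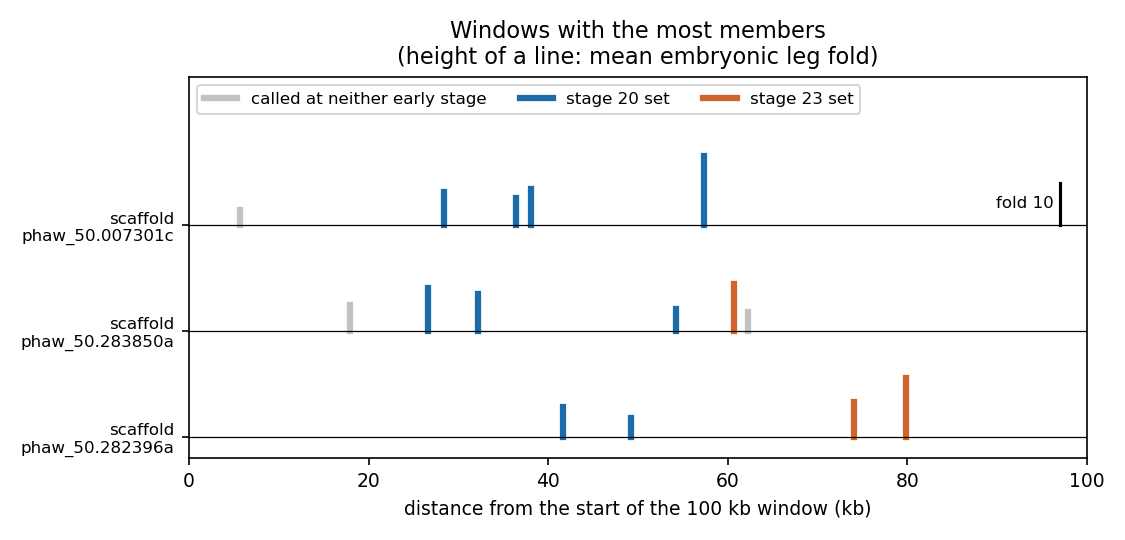
The 3 windows of 100 kb with the most members, each on a line of its own (horizontal axis, distance from the window's start in kb), with a mark per eligible region whose height is its mean embryonic leg fold (scale mark, fold 10). The top window holds 4 stage 20 members, the middle one 3 stage 20 and 1 stage 23 member, and the bottom one 2 of each.

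Close pairs of a stage 20 and a stage 23 member were few, with 4 pairs within 1 kb, about as in eligible regions. A stage 23 member lay within 1 kb of 0.247% of stage 20 members and of 0.184% of eligible regions. A stage 20 member lay that near to 0.282% of stage 23 members and to 0.234% of eligible regions. The closest pair, 184 bp apart on phaw_50.283823c, joined the stage 20 region at 31144954 to 31145301 with a stage 23 region at 31145486 to 31145820. The former had leg folds of 4.59, 3.88 and 3.64 and the latter 12.6, 12.8 and 19.3, so that the stage 23 member was the stronger in every leg library, and at stage 24 they had 4.83 and 8.03. On phaw_50.283865a a pair 441 bp apart had leg folds of 5.00, 6.86 and 5.96 (stage 20 member at 2260992 to 2261507) and 3.75, 3.28 and 4.19 (stage 23 member at 2260089 to 2260550), and the stage 23 member alone was called at stage 24. On phaw_50.283865b a pair 512 bp apart had 8.61, 6.99 and 7.52 (stage 20 member at 6635172 to 6635528) and 6.07, 7.38 and 6.84 (stage 23 member at 6636041 to 6636511), and both were called at stage 24.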

How the data were processed

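Peak lists of 10 ATAC-seq libraries were used. The submitters' processing notes list, with no roles, MACS2 2.2.7.1, Picard, Bowtie2 2.5.4, bedtools 2.31.1 and SAMtools 1.21. Control, threshold and genome build were not given in the sources used here. The deposited fold is a ratio of summit to expected pileup, each plus 1. Deposited −log10 p-values and q-values are per summit. The deposited summit offset gave positions.

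Rows with equal coordinates counted as 1 peak, and a region took the highest fold of its peaks. Pileups were solved from fold and Poisson p within 0.005 of the deposited −log10 p. Differences of shares have 95% Newcombe intervals. Named regions were the 6 strongest in legs, 3 strongest in the early embryo, 3 strongest without stage 24 and 3 weakest early calls per set, with 3 windows and 3 pairs. Python 3.11.15, numpy 2.4.6, pandas 2.3.3 and scipy 1.17.1 were used; overlaps were checked with bedtools 2.31.1, and selection and pileups tested on simulated data. Members and lists were chosen with earlier results of these data known. The labels do not say whether replicates came from separate animals.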

Additional observations from a re-analysis of the deposited data

How the results depend on the processing

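With a −log10 q of at least 5 the sets held 812 and 589 regions, the stage 24 difference (stage 23 minus stage 20 set) was −8.43 points and the leg fold difference 0.699. With 48324 peaks per nuclei library the sets held 929 and 959 regions and the stage 24 difference was −15.4 points. Leaving out 1 leg library gave 1726 to 2795 and 1532 to 2870 regions, stage 24 differences of −7.10 to −2.70 points, naked DNA differences of −3.88 to −1.20 points and leg fold differences of 0.201 to 0.514. The cause of these shifts was not tested; fewer libraries to satisfy admit more regions. Of 74 values under 15 alternatives, 64 stayed within 1.5 times for counts or within the interval or SD for differences, some of those above included. Both counts, the stage 24 difference and the fold difference moved further with a −log10 q of at least 5. The stage 20 count and the stage 24 difference did so with 48324 peaks per library and without embryonic leg 2. Without adult leg 1 both counts did. Every stage 24, naked DNA and fold difference kept its sign. The interval of the naked DNA difference excluded 0 with no scaffold minimum (−5.10 to −0.455) and without embryonic leg 2, embryonic leg 3, adult leg 1 or adult leg 2. An overlap of 50% could change the naked DNA shares alone, since merged regions contain their peaks. No paired analysis was possible because the values come from no test and each early stage is 1 library. Many of the early calls rest on a few fragments, and the part of depth in them was not tested.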

Other observations

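Many regions missed the selection by 1 leg library. On the same scaffolds 3008 regions were as the members but lacked a call in 1 embryonic leg library, which was embryonic leg 2 for 1678, embryonic leg 1 for 1035 and embryonic leg 3 for 295. A further 3233 were as the members but were called in 1 adult leg library, which was adult leg 1 for 2629, adult leg 2 for 382 and adult leg 3 for 222. These had a median mean embryonic leg fold of 8.66, against 7.05 in the members.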
